A study of Oryzias latipes with 6 samples.

Results

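Genes for the storage, transport and synthesis of lipids were followed in the axial tissue of Japanese medaka (Oryzias latipes) larvae that had been exposed to dioxin as embryos. Members were chosen by gene symbol, from the families of fatty acid binding proteins, perilipins, lipases, acyl-CoA synthetases, acyltransferases, elongases, desaturases, lipoprotein and adipokine receptors, and enzymes of sterol synthesis. That rule, made with earlier results of these data known, gave 97 of the 20459 genes of the authors' deposited table.

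Fish of the strain Orange-red Hd-dR were compared in 2 groups of 3 libraries. In the TCDD group, embryos were held at about 4 hours post fertilization for 1 h in 0.3 nM TCDD, a dioxin and ligand of the aryl hydrocarbon receptor; the controls received 0.1% DMSO, the solvent. At 20 days post fertilization all fish of both groups were larvae on the same diet, and each RNA sample pooled 15 to 25 of them. The dissected tissue held vertebrae with the adjoining muscle, fat and dermis, so each value is an average over several tissues, and fewer cells of a type cannot be told apart from less RNA per cell.

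The authors deposited 1 value per gene and group, in FPKM, a unit that divides the reads of a gene by its length and by the size of the library. Where a pair of values follows a gene, the first is DMSO and the second TCDD. No value per library, SD or depth can be given, and whether the groups overlap cannot be seen. Significance rests on the authors' q-value, a p-value adjusted over the 3286 genes that they tested, and genes with q below 0.05 are called. Nothing states how their test treated the 3 libraries of a group, or whether pools stem from separate clutches, so the p-values may measure technical spread.

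Fat is kept as triacylglycerol in lipid droplets. It is built stepwise on a glycerol 3-phosphate backbone from fatty acids activated to acyl-CoA, and lipases remove those fatty acids again. Lipoprotein lipase takes fatty acids from circulating lipoproteins, and small binding proteins carry them inside the cell. A sterol-regulated pair of SREBP transcription factors sets the level of the enzymes that make cholesterol and fatty acids. In mammals, dioxin is known for wasting, fatty liver and altered fat metabolism.

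TCDD-exposed larvae had higher levels of 3 lipid genes and a lower level of 1. The rises were those of pnpla3, an acylglycerol hydrolase, acsl4a, which activates polyunsaturated fatty acids, and lpin1, a phosphatidate phosphatase; the fall was that of gpd1b, which makes glycerol 3-phosphate. Of the 97 members 23 were tested in the authors' deposited table, and 4 of these passed q 0.05, which is 17.4%. Among all tested genes 18.2% passed, 10.7% higher and 7.46% lower. The share of members that passed was thus near that of the whole table. As log2 fold change, TCDD over DMSO, the median was -0.02 over the 23 tested members and 0.05 over all tested genes. Among members 11 had the higher value in TCDD and 12 in DMSO, and among all tested genes 1727 and 1559. The DMSO values of the whole table summed to more than the TCDD values. Setting the totals equal adds 0.25 to every log2 fold change, or 0.03 if the 10 most abundant genes are left out of the totals. The addition of 0.25 would make the split of members 16 and 7. Beside it, the split of all tested genes above 0 in both groups would be 2093 and 1169.

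**Figure D1:**
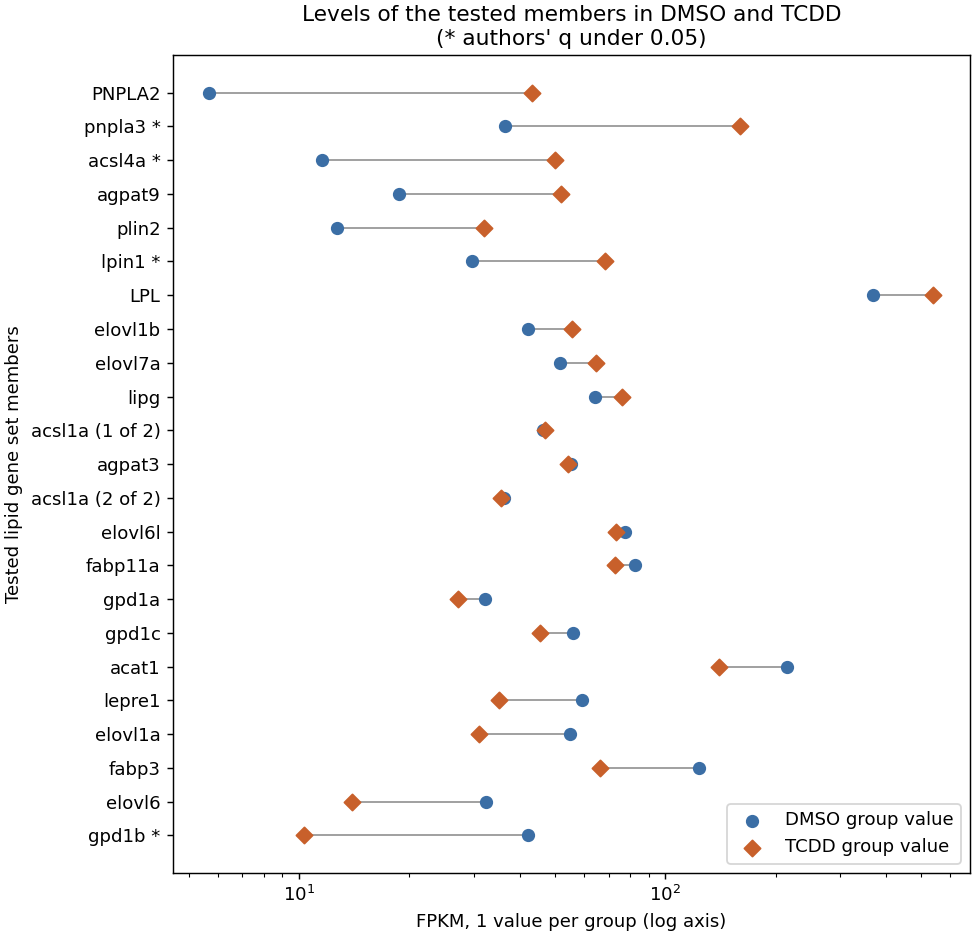
Levels of the 23 tested members in FPKM on a log axis, 1 value per group, with circles for DMSO and diamonds for TCDD joined by a line; an asterisk marks the 4 genes with the authors' q under 0.05. The long lines belong to PNPLA2, pnpla3 and acsl4a, with TCDD above DMSO, and to gpd1b, with TCDD below DMSO, while LPL stands to the right of all others in both groups.

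**Figure D2:**
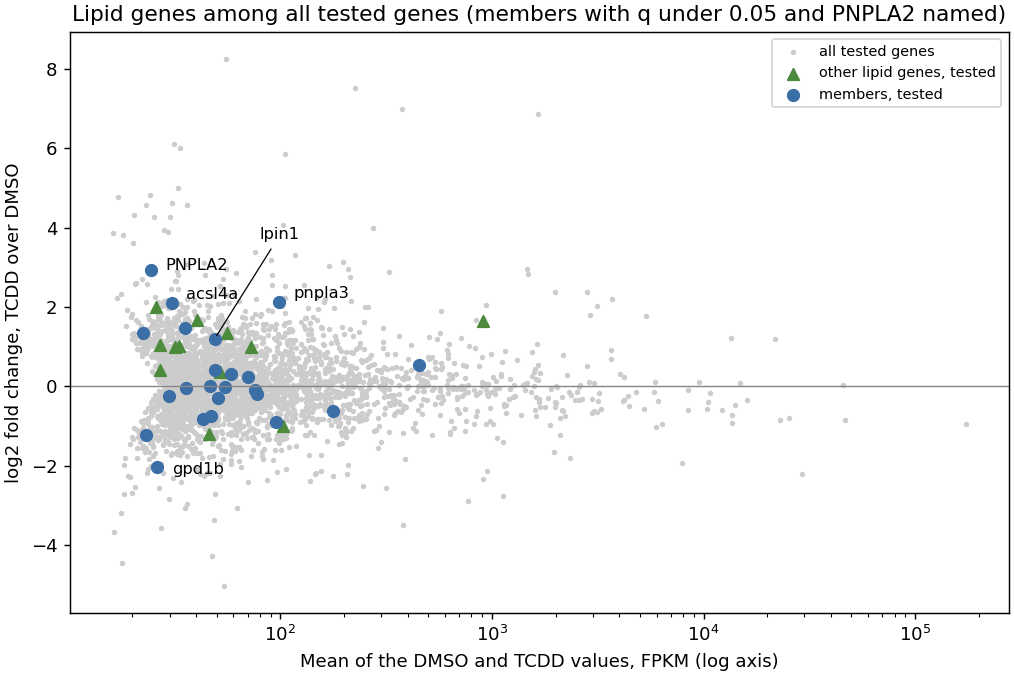
Fold change (log2, TCDD over DMSO) against the mean FPKM of both groups (log axis) for tested genes above 0 in both groups, with members as circles and tested lipid genes outside the set as triangles. Members lie on both sides of 0 inside the cloud of all tested genes, whose median is 0.05; the 4 called members and PNPLA2 are named.

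Of the 4 tested lipases and other lipid hydrolases, 1 rose and 0 fell, beside 10.7% of all tested genes that rose and 7.46% that fell. The gene pnpla3 encodes adiponutrin, a droplet-bound hydrolase of acylglycerols that follows feeding and SREBP activity in mammals. It rose 4.38-fold, with 36.5 FPKM for DMSO and 160 for TCDD per the authors' deposited table (log2 2.13, q = 0.00105). Its p-value, 5e-05, is the smallest that the authors' test gave and is shared by 157 genes. The locus lies on chromosome 23 at 11576604 to 11590291, in the coordinates of the deposited file; no source names the build. With both values it ranked 3 among the 97 members by mean level.

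PNPLA2 had a larger fold difference than pnpla3 and did not pass. It encodes adipose triglyceride lipase, the enzyme that starts triacylglycerol breakdown in mammals. Its values were 5.68 FPKM for DMSO and 43.1 for TCDD per the authors' deposited table (7.58-fold, p = 0.0282, q = 0.107). Its locus, on chromosome 6 at 10753429 to 10774397, overlaps an unnamed gene (ENSORLG00000006254), so reads of the pair are uncertain. It was the 1 tested member whose locus overlaps another gene of the table.

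Lipoprotein lipase, LPL, was the most abundant member. Its values were 369 FPKM for DMSO and 539 for TCDD per the authors' deposited table (1.46-fold, q = 0.221), which did not pass. The endothelial lipase gene lipg, whose product acts mainly on lipoprotein phospholipids, had 64.3 and 76.1 FPKM (q = 0.629) per the authors' deposited table. All 4 tested lipases had a higher value in TCDD, and 1 of them passed. Among all 3286 tested genes 1727 had the higher value in TCDD. Of the 7 untested hydrolases, 4 had the higher value in TCDD and 3 in DMSO (5 and 2 at equal totals). The monoacylglycerol lipase gene mgll, which completes triacylglycerol breakdown, had 10.4 and 22.8 FPKM per the authors' deposited table, and the phospholipase gene PNPLA8 (1 of 2) had 4.03 and 14.5 FPKM. A row named pnpla8, without a copy number, had 4.77 and 4.60 FPKM there. The remaining patatin-like genes, PNPLA1, pnpla6, pnpla7a and pnpla7b, stayed at or below 10.4 FPKM in both groups.

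Assembly of glycerolipids held 1 called rise and 1 called fall among 6 tested genes, beside 10.7% and 7.46% of all tested genes. Lipin 1, encoded by lpin1, removes the phosphate of phosphatidate to give diacylglycerol and also acts in the nucleus as a coactivator in mammals. It rose from 29.6 to 68.3 FPKM per the authors' deposited table (2.30-fold, log2 1.20, q = 0.00625; chromosome 3, 24553544 to 24568974). A second lipin row, LPIN2 (1 of 2), was not tested and stood at 0.38 and 1.73 FPKM per the authors' deposited table. Of these rows lpin1 had the higher level in both groups. No row for copy 2 of 2 was among the members, so the total lipin level is unknown.

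The fall was that of gpd1b, a cytosolic glycerol 3-phosphate dehydrogenase that links glycolysis to the glycerol backbone. It fell from 42.0 to 10.3 FPKM per the authors' deposited table (4.07-fold lower, log2 -2.02, p = 0.0063, q = 0.0384; chromosome 5, 12905962 to 12911293). Medaka has further gpd1 genes, and neither of the other tested copies passed: gpd1a had 32.1 and 27.1 FPKM (q = 0.664) and gpd1c 56.0 and 45.4 FPKM (q = 0.579) per the authors' deposited table. All 3 had the lower value in TCDD as deposited, and 2 of 3 at equal totals, where gpd1a changes sign. The difference in fold change between the copies was not tested. Summed over the 3 genes, the level was 130 FPKM in DMSO and 82.9 FPKM in TCDD.

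Acyltransferases that add fatty acids to the backbone did not pass. The glycerol 3-phosphate acyltransferase gene agpat9, known as GPAT3 in mammals, had 18.8 and 51.8 FPKM per the authors' deposited table (2.76-fold, p = 0.0178, q = 0.0788). Its namesake agpat9l was not tested and had 10.6 and 2.08 FPKM there. The lysophosphatidate acyltransferase gene agpat3 had 55.1 and 54.2 FPKM (q = 0.955) per the authors' deposited table. The untested agpat5 had 1.92 and 14.5 FPKM, 7.57-fold apart, per the authors' deposited table. Of the 26 untested members that reached 10 FPKM in 1 group, agpat5 and agpat9l were those with at least a 4-fold difference, 1 in each direction. Among all such untested genes in the deposited data, 5.73% were at least 4-fold higher and 4.00% at least 4-fold lower.

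The other members of the assembly pathway were not tested. The mitochondrial acyltransferase gene gpam had 9.09 and 13.8 FPKM and agpat2, an adipocyte-enriched acyltransferase in mammals, 6.41 and 2.60 FPKM per the authors' deposited table. Among the diacylglycerol acyltransferases, which make triacylglycerol, dgat1b had 5.03 and 5.83 FPKM, dgat1a 1.42 FPKM in DMSO and was listed at 0 in TCDD, and dgat2 was listed at 0 for DMSO with 0.79 FPKM for TCDD per the authors' deposited table. A row named AGPAT6 had 20.1 and 33.9 FPKM, and a separate agpat6 row, whose locus overlaps 7 other genes, was listed at 0 for DMSO and had 1.12 FPKM for TCDD per the authors' deposited table.

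Activation of fatty acids to acyl-CoA held the third rise. Long-chain acyl-CoA synthetase 4 prefers arachidonate and other polyunsaturated fatty acids in mammals. Its gene acsl4a rose from 11.5 to 49.8 FPKM per the authors' deposited table (4.32-fold, log2 2.11, q = 0.00105; chromosome 10, 18176987 to 18185813). The more general synthetase gene acsl1a, associated with muscle, fat and liver in mammals, is present as a pair of rows. Copy 1 of 2 had 46.4 and 47.0 FPKM (q = 0.965) and copy 2 of 2 had 36.3 and 35.5 FPKM (q = 0.955) per the authors' deposited table. Reads could be divided between these copies, and neither passed. In DMSO acsl4a stood below both acsl1a rows, and in TCDD it stood at 49.8 FPKM, above either of them. The other synthetases were not tested; acsl3a had 7.44 and 16.8 FPKM per the authors' deposited table, acsl3b, acsl5 and acsl6 stayed below that, and acsl1b was listed at 0 in both groups.

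**Figure D3:**
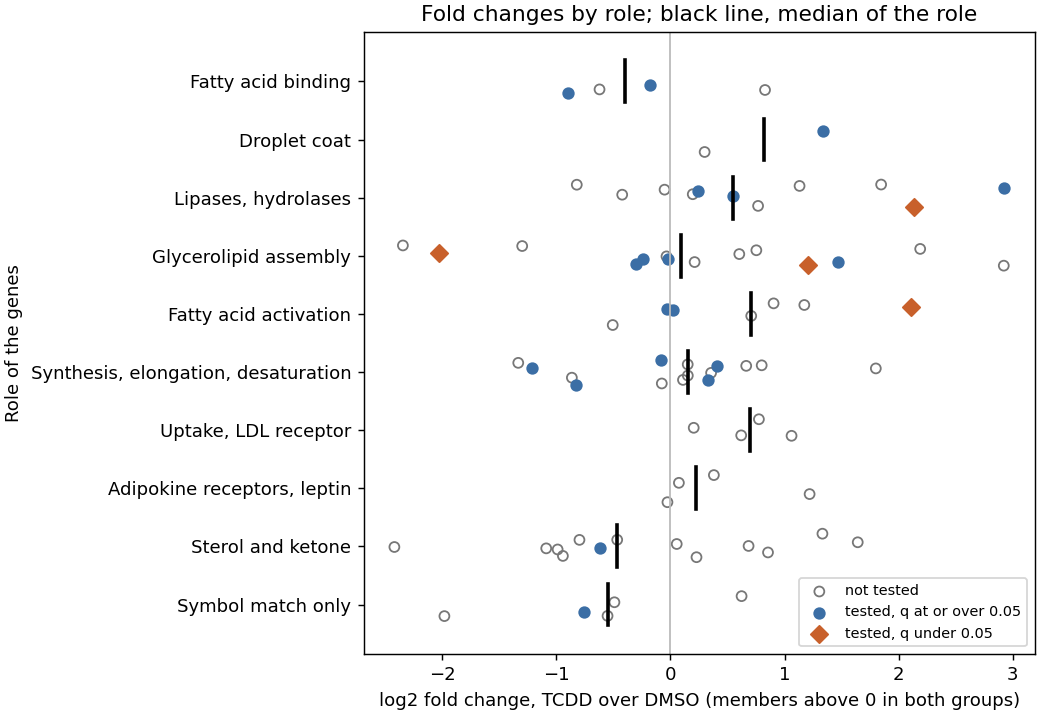
Fold change (log2, TCDD over DMSO) for the 79 members above 0 in both groups, by role, with open circles for untested members, filled circles for tested members that did not pass and diamonds for the 4 that passed; the black line is the median of each role. The medians lie at 0.55 for lipases and 0.71 for fatty acid activation, and at -0.47 for sterol and ketone genes, and as deposited each role but the uptake genes and the droplet coat genes has members on both sides of 0.

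None of the tested fatty acid elongation genes passed. Elongases lengthen the fatty acid chain: ELOVL1 acts on very long chains, ELOVL6 on palmitate and ELOVL7 on longer saturated chains in mammals. Of 7 elovl genes 5 were tested in the authors' deposited table and 0 passed q 0.05, beside 18.2% of all tested genes. The unadjusted p of elovl1a was 0.0258. The paralogs elovl1a and elovl1b pointed apart, with 54.9 and 30.9 FPKM (q = 0.101) and 42.1 and 55.7 FPKM (q = 0.425) per the authors' deposited table; the difference was not tested. The gene elovl6 had 32.4 and 13.9 FPKM, the larger fold difference of 2.32, with a weaker p-value of 0.214 (q = 0.394) per the authors' deposited table. Its relative elovl6l had 77.7 and 73.5 FPKM (q = 0.892) and elovl7a 51.7 and 64.7 FPKM (q = 0.581) per the authors' deposited table. Summed over the 7 genes the level was 263 FPKM in DMSO and 243 FPKM in TCDD.

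The genes of fatty acid synthesis and desaturation were untested and stood at or below 21.9 FPKM in both groups. Acetyl-CoA carboxylase, the committed step, had 4.25 and 5.44 FPKM for acaca and 7.87 and 8.74 FPKM for acacb in the authors' deposited table. The fatty acid synthase gene fasn had 5.74 and 9.10 FPKM there. Stearoyl-CoA desaturase, which makes monounsaturated fatty acids, had 20.3 and 21.9 FPKM for scd and 7.36 and 2.92 FPKM for scdb in the authors' deposited table. The fads2 genes encode the desaturase of polyunsaturated fatty acids and stand as 3 copies in a row on chromosome 6 between 10917804 and 10934821. In the authors' deposited table copy 3 of 3 carried most of their signal, with 19.4 and 10.6 FPKM, while copy 1 of 3 had 0.77 and 2.66 FPKM and copy 2 of 3 was listed at 0 in both groups. PNPLA2 lies 143406 bp before this cluster, and its values and those of fads2 (3 of 3) pointed in opposite directions.

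Fatty acid binding proteins shuttle fatty acids and other hydrophobic ligands through the cytoplasm, each paralog with its own tissue. Of 11 genes 2 were tested and neither passed, beside 18.2% of all tested genes that passed. The muscle and heart form fabp3 was the most abundant by mean level, with 124 and 66.2 FPKM per the authors' deposited table (1.87-fold lower value in TCDD, p = 0.0164, q = 0.075). Beside it, 5 other skeletal muscle markers were tested, of which 2 (mylpfa and pvalb4) fell and 0 rose by the authors' q-values. Among all tested genes 7.46% fell and 10.7% rose. The summed level of these 5 markers was 348250 FPKM in DMSO and 195069 FPKM in TCDD. The parvalbumin genes pvalb1 and pvalb4 carried most of that sum, pvalb1 did not pass (q = 0.0915 per the authors' deposited table), and the creatine kinase genes ckma and ckmb had the higher value in TCDD as deposited. Their part in the fabp3 values was not tested. The fish-specific fabp11a, an adipocyte marker in zebrafish and a relative of mammalian FABP4, had 82.4 and 72.6 FPKM (q = 0.831) per the authors' deposited table. In TCDD its value was above that of fabp3.

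The binding proteins of other tissues were not tested. The brain form FABP7 had 36.8 and 23.9 FPKM and the ileal bile acid binding form fabp6 11.1 and 19.7 FPKM per the authors' deposited table. FABP7 lies above several tested members in level. The liver forms fabp10a and fabp10b, the intestinal fabp2 and the paralog fabp11b were listed at 0 in both groups. FABP2 (1 of 2) had 1.79 FPKM in TCDD and fabp1b.1 and fabp7a had 2.34 and 1.87 FPKM in DMSO per the authors' deposited table, each listed at 0 in the other group. The fabp1b.1 locus overlaps smyd1b. Summed over the family, which avoids the division of reads among paralogs, the level was 258 FPKM in DMSO and 184 FPKM in TCDD (log2 -0.49), a sum set mainly by fabp3 and fabp11a.

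**Figure D4:**
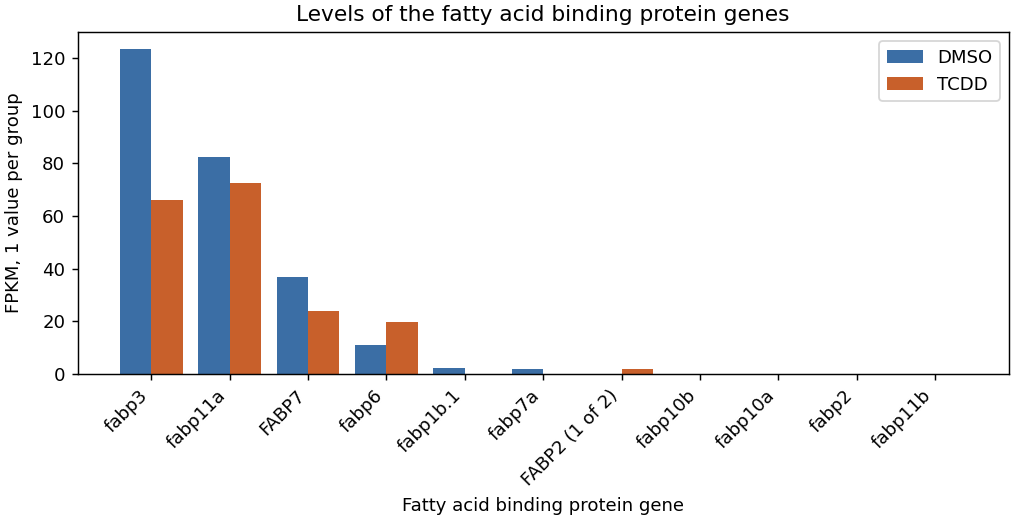
Levels of the 11 fatty acid binding protein genes in FPKM, 1 value per group, blue for DMSO and orange for TCDD. The genes fabp3 and fabp11a carry most of the signal, at 124 and 66.2 and at 82.4 and 72.6 FPKM, and 4 genes are listed at 0 in both groups.

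Lipid droplet and fat cell genes gave few values. Perilipin 2, the droplet coat protein of cells other than adipocytes in mammals, had 12.7 and 32.0 FPKM for plin2 per the authors' deposited table (2.52-fold, p = 0.0566, q = 0.167). A second row, PLIN2, had 0.85 and 1.05 FPKM there. Of the adipocyte marker list, 5 genes could be followed, and no row was named plin1, cidec or adipoq. Besides LPL, fabp11a and the leptin gene LEPA, it held the adipogenic transcription factors pparg, with 5.64 and 4.25 FPKM, and cebpa, with 20.3 and 9.68 FPKM per the authors' deposited table. The label of the tissue includes fat, but these values are averages over all its cells and give no level for adipocytes. Neither pparg nor cebpa was tested.

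Receptors and adipokine genes were untested throughout. The leptin gene LEPA was listed at 0 for DMSO and 1.65 FPKM for TCDD, and its receptor lepr had 4.46 and 4.38 FPKM per the authors' deposited table. The adiponectin receptor genes had 12.4 and 13.0 FPKM for adipor1a and 8.99 and 20.9 FPKM for adipor2 per the authors' deposited table. LEPROT, which controls the surface display of the leptin receptor in mammals, had 26.2 and 34.1 FPKM there. The receptor for low density lipoprotein stands as 3 rows, all with the higher value in TCDD and none above 8.39 FPKM per the authors' deposited table. Its adaptor gene ldlrap1b had 17.4 and 20.1 FPKM, and the fatty acid translocase gene cd36 0.69 FPKM in DMSO and was listed at 0 in TCDD per the authors' deposited table.

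Sterol and ketone genes had values in both directions. Of 14 genes 1 was tested: acat1, the mitochondrial acetoacetyl-CoA thiolase of ketone metabolism, had 214 and 140 FPKM per the authors' deposited table (p = 0.0566, q = 0.167). It was the second most abundant member by mean level. Among the 12 untested genes above 0 in both groups, 6 had the higher value in TCDD and 6 in DMSO. The regulators had the higher value in TCDD: srebf1 had 10.2 and 18.4 FPKM and srebf2 3.63 and 11.3 FPKM per the authors' deposited table. The srebf1 locus overlaps ola-mir-33, which was listed at 0 in both groups, and the srebf2 locus overlaps an unnamed gene. The retention factors that hold SREBP in the endoplasmic reticulum had 13.2 and 13.8 FPKM for insig1 and 22.8 and 16.5 FPKM for insig2 per the authors' deposited table.

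Enzymes of the cholesterol pathway had values on both sides. HMG-CoA reductase, the rate-limiting enzyme, had 14.0 and 22.5 FPKM for hmgcrb, whereas the synthase before it, hmgcs1, had 16.2 and 7.63 FPKM per the authors' deposited table. Farnesyl diphosphate synthase, fdps, had 14.7 and 17.2 FPKM and the squalene epoxidase gene sqlea 0.54 and 1.37 FPKM there. The reductase gene dhcr7, at the end of the pathway, had 14.6 and 8.37 FPKM per the authors' deposited table. The cytosolic thiolase gene acat2 had 3.40 and 0.63 FPKM per the authors' deposited table. None of these values has a test.

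The spelling of the symbols also brought in 7 genes outside lipid metabolism. The 5 leprecan rows encode prolyl 3-hydroxylases of collagen or their relatives. Of these lepre1 was tested, with 59.2 and 35.1 FPKM per the authors' deposited table (p = 0.0395, q = 0.136). The others are ldlrad3 and ldlrad4, membrane proteins with a receptor-like domain; ldlrad3 was listed at 0 in both groups and ldlrad4 had 4.09 and 1.04 FPKM per the authors' deposited table. Without these 7 genes the called members and their counts were unchanged, at 3 higher and 1 lower of 22 tested.

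Among lipid genes outside the set, from a list of transport, sterol efflux, phospholipid and regulatory genes, 5 rose and 1 fell by the authors' q-values. The list had 73 genes in the deposited data, of which 12 were tested; the 6 called are 50% of these, beside 18.2% of all tested genes. At q 0.01 abca1a would be the 1 gene called of the 12, beside 5.60% of all tested genes called higher and 3.53% lower. The median log2 fold change of the 12 was 1.00 as deposited and that of all tested genes 0.05. The list was chosen with earlier results of these data known, so these shares cannot show whether it differs from other genes. That difference was not tested. The rises were led by abca1a, the cholesterol efflux pump, from 19.2 to 61.8 FPKM (q = 0.00105) per the authors' deposited table. The lysosomal cholesterol carrier gene npc2 rose from 31.5 to 80.3 FPKM (q = 0.0444) and scarb1, a receptor for high density lipoprotein, from 22.0 to 44.2 FPKM (q = 0.0475) per the authors' deposited table. The malic enzyme gene me1, a source of NADPH, rose from 48.3 to 96.4 FPKM (q = 0.022) and pcyt2 (2 of 2), for phosphatidylethanolamine synthesis, from 17.7 to 36.4 FPKM (q = 0.0468) per the authors' deposited table. The other copy, pcyt2 (1 of 2), pointed the other way, with 6.08 and 2.35 FPKM, and was not tested.

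The fall was that of angptl4, a secreted inhibitor of lipoprotein lipase, from 64.0 to 28.1 FPKM per the authors' deposited table (2.28-fold lower, q = 0.0215). Its target LPL, described above, did not pass. The apolipoprotein E gene apoeb had 440 and 1371 FPKM per the authors' deposited table (3.12-fold, q = 0.0735), more than any member. Its locus overlaps an unnamed gene and lies on chromosome 16 among untested apolipoprotein genes. Before apoeb lie APOA4 (2 of 3), with 2.34 and 26.6 FPKM, and APOA4 (3 of 3), with 1.58 and 3.39 FPKM. After apoeb lies apoa2, with 3.12 and 37.3 FPKM per the authors' deposited table. The SREBP escort gene scap (1 of 2) had 10.3 and 41.5 FPKM (q = 0.553) and the acyl-CoA binding protein gene dbi 137 and 69.1 FPKM (q = 0.143) per the authors' deposited table. The remaining tested genes, apoa1b, pmvk and cav1, did not pass (q = 0.223, 0.574 and 0.642); the loci of apoa1b and pmvk each overlap another gene.

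**Figure D5:**
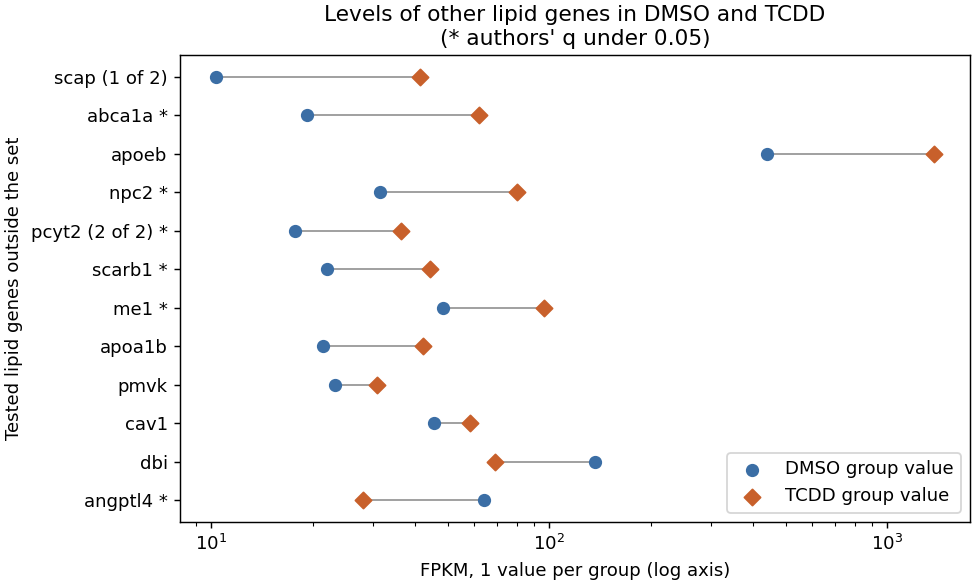
Levels of the 12 tested lipid genes outside the set in FPKM on a log axis, 1 value per group, circles for DMSO and diamonds for TCDD; an asterisk marks the 6 with the authors' q under 0.05. In 10 of the 12 the TCDD value is the higher one, and angptl4 and dbi have the lower value in TCDD.

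Summed levels of markers of other cell types, counted without members of the lipid set, were higher in TCDD for some lists and lower for others. The liver list summed to 33.6 FPKM in DMSO and 125 FPKM in TCDD over 13 genes. Of these 8 had the higher value in TCDD, 0 the lower and 5 were listed at 0 in both groups. Most of that sum came from apoa1b, with 21.4 and 42.2 FPKM, and apoa2, with 3.12 and 37.3 FPKM. These and apobb are also among the other lipid genes above, so this sum is not independent of them. Outside the lipid lists, tfa had 3.36 and 21.0 FPKM and kng1 5.02 and 20.5 FPKM, and neither was tested. The gene fabp10a, a defining liver gene of the lipid set, was also at 0 in both groups. The gut and pancreas list summed to 80.8 and 141 FPKM over 11 genes, with 7 higher and 4 lower values in TCDD. Of these 2 were tested and 1, cdh17, rose by the authors' q-values. The lower values were all untested: CPA1 (1 of 2) with 5.41 and 4.16 FPKM, CPA1 (2 of 2) with 7.92 and 3.37 FPKM, ela2 with 4.43 and 1.89 FPKM, and ANPEP (3 of 3) with 16.9 and 10.1 FPKM. The APOA4 rows of this list are likewise among the other lipid genes. The blood list summed to 49.2 and 129 FPKM over 5 genes, with 3 higher and 2 lower values. In it ptprc rose (q = 0.00105 per the authors' deposited table), and the untested SPI1 was listed at 0 for DMSO and 43.1 FPKM for TCDD. The lower values were those of mpx (2 of 2), with 32.7 and 32.2 FPKM (q = 0.968), and the untested ALAS2, with 3.86 and 2.70 FPKM. The neural and glial list summed to 423 and 380 FPKM over 7 genes, with 3 higher, 3 lower and 1 listed at 0 in both. Higher were snap25a, elavl3 and elavl4, and lower were gfap, mbpa and plp1b. The adipocyte list, of pparg and cebpa, summed to 25.9 and 13.9 FPKM, with both lower. With the lipid set members LPL, fabp11a and LEPA included, the adipocyte list summed to 477 and 628 FPKM, with 2 higher and 3 lower values. Most of that sum came from LPL, with 369 and 539 FPKM, which did not pass (q = 0.221). The other higher value was that of LEPA, listed at 0 for DMSO and 1.65 FPKM for TCDD, while fabp11a, pparg and cebpa were lower in TCDD. The part of these cell types in the lipid gene values was not tested.

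The fall of gpd1b lost its call at a stricter threshold. At q 0.01, 3 members were higher and 0 lower, beside 5.60% and 3.53% of all tested genes. At q 0.1, 4 were higher and 2 lower, agpat9 and fabp3 being added, beside 14.7% and 10.7%. At an unadjusted p of 0.05, 5 were higher and 4 lower, beside 18.7% and 13.9% of all tested genes. The members that this last rule added were PNPLA2, elovl1a and lepre1.

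Untested members were mostly low. Of the 74, 8 were listed at 0 in both groups, 4 in DMSO alone and 6 in TCDD alone. The other 56 had a median log2 fold change of 0.21, and 35 of them had the higher value in TCDD, beside a median of 0.03 and 5999 of 11743 over all such untested genes. At equal totals those counts would be 39 of 56 and 7400 of 11743. All of the 15 most abundant members were tested, and 3 untested members lay at or above the lowest mean of a tested one, 22.4 FPKM.

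Some members are neighbours in the genome. Within 300 kb of each other lay 9 members. On chromosome 15, agpat5 is followed by elovl5 within 23369961 to 23425119. Beside the 1.92 and 14.5 FPKM of agpat5, elovl5 had 2.37 and 2.25 FPKM per the authors' deposited table. On scaffold461, fabp2, listed at 0 in both groups, lies 113214 bp before acsl1a (2 of 2).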

How the data were processed

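PolyA RNA from axial tissue (RNA integrity number of at least 9.9, from 2 µg of total RNA, per the labels' protocols) was sequenced on the Ion Torrent PGM in 3 DMSO and 3 TCDD libraries. Bowtie2 2.2.6 and DESeq2 are listed, without their roles, in the submitters' processing notes. The deposited table has a Cuffdiff header, per the file headers, so the program behind its values is unclear, and the sources used here do not give a genome build. The authors deposited group values read as FPKM from that layout, a test statistic (a score), and p-values and q-values, 1 each per gene. Depth per sample is unknown.

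From these values the fold change was recomputed as log2 of TCDD over DMSO without a pseudocount, and no further test was run, the counts test foreseen being impossible without library values. The authors' q-values matched Benjamini-Hochberg values over the tested genes to within 5.11e-07. Starts at position 0 occur at 7 loci, so 1 was added to every start. Members follow the symbol rule; the lists of other lipid genes and of markers, like the members, were chosen with earlier results of these data known. The split of symbol-only matches and the role names were made after values were seen. Every tested member is named; untested members were to be named if among the 15 most abundant, which none was, at a 4-fold difference from 10 FPKM up, or to represent a step; some single genes are not reported here. Alternatives were q thresholds of 0.01 and 0.1, an unadjusted p of 0.05, a mean of at least 50 FPKM, scalings, pseudocounts of 1 and 5, and leaving out overlapping loci or suffixed symbols. The code for calls was tested on simulated data. A table of RefSeq gene names shared 0 identifiers with the data and was not used. Python 3.11.15, pandas 2.3.3 and numpy 2.4.6 were used.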

Additional observations from a re-analysis of the deposited data

Results flagged for a closer look

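The acyltransferase gene agpat5 was flagged among the untested members, outside the authors' comparison. Its TCDD value lay above the DMSO value by more than 4-fold. Its values were 1.92 FPKM for DMSO and 14.5 for TCDD per the authors' deposited table. There is no p-value for it, and the number of reads behind it is not given. The flag covered higher values only, and agpat9l met the same limit in the other direction, with 10.6 and 2.08 FPKM. Among all untested genes that reached 10 FPKM in 1 group, 5.73% were at least 4-fold higher and 4.00% at least 4-fold lower.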

How the results depend on the processing

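Against 3 members called higher and 1 lower at q 0.05, the counts were 5 and 4 at an unadjusted p of 0.05 and 1 and 0 with a mean of at least 50 FPKM, a level that leaves 10 tested members and of the called ones pnpla3 alone. The share of all tested genes called at that level was not worked out, so this count has no background. The lower count was 0 at q 0.01 and 2 at q 0.1. Leaving out overlapping loci, symbols with a copy suffix or the symbol-only genes, the last chosen after seeing the data, left 3 and 1. The median log2 fold change of tested members, -0.02, ranged from -0.07 with the median of all tested genes subtracted to 0.22 at equal totals, so its sign is not fixed. With the 10 most abundant genes left out of the totals, it was 0.008. Each of these scalings adds the same amount to every gene, so the median of all tested genes moves along with that of the members. Of 115 fold changes of single genes under other scalings or pseudocounts, 1 moved by over 1.5 times, PNPLA2 at a pseudocount of 5 (log2 2.17), and 0 called genes changed direction. The log2 difference of summed fatty acid binding protein levels was -0.24 at equal totals. Leaving out libraries and count models could not be run. No paired analysis was possible because libraries have no values of their own in the deposited data.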
